A study of Mus musculus with 3 samples.

Results

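The genes described here are the Wnt ligands, the Frizzled receptors, the co-receptors Lrp5, Lrp6, Ror1 and Ror2, the secreted antagonists of the Sfrp and Dkk families with Wif1, the R-spondins, and 7 intracellular genes of the pathway (Ctnnb1, Axin1, Axin2, Lef1, Tcf7, Tcf7l1 and Tcf7l2). The set was chosen with earlier results of these data known. Its genes were then taken by symbol alone from a table of 21782 genes, with no use of their values, and 53 genes matched. These were 19 Wnt ligands, 10 Frizzled receptors, 4 co-receptors, 9 secreted antagonists, 4 R-spondins and the 7 intracellular genes. The RNA was polyA-selected from WT mouse embryo fibroblasts (MEFs), primary cells that were taken from E12.5 embryos, grown with 20% FBS and harvested while growing asynchronously. No other genotype or treatment is part of the experiment. There are 3 clones with 1 library each, so levels are given for every clone or as mean ± SD, and differences are differences between libraries. Whether the clones come from separate embryos is not stated in the sources used here.

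Wnt proteins are secreted lipid-modified ligands that bind a Frizzled receptor together with a co-receptor. With Lrp5 or Lrp6 they stop a complex built on Axin from degrading β-catenin, the product of Ctnnb1, which then acts on transcription together with Lef1 and the Tcf proteins. With Ror1 or Ror2, ligands such as Wnt5a signal without β-catenin and act on cell shape and migration in mesenchyme. Sfrp and Wif1 proteins bind Wnt ligands, Dkk proteins act mainly at Lrp co-receptors, and R-spondins keep Frizzled and Lrp proteins at the cell surface through Lgr receptors.

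Between 22594316 and 25261357 reads were counted on genes per clone, so that depths lay within 1.12-fold of each other. Levels in CPM are counts per 1000000 counts after scaling of the library sizes, and a count of 0 allows up to 0.133 CPM, the level of 3 counts in the smallest library. All 10 genes of a fibroblast list were at 1 CPM or more in every clone, with summed levels of 57187, 47764 and 46108 CPM in clones 1, 2 and 3. Clone 2 stood apart in macrophage markers. Of 12 listed macrophage genes, 11 were in the table, all of these were at 1 CPM or more in every clone, and none was at 0. They summed to 398, 1872 and 330 CPM, so that clone 2 was at 5.15 times the mean of the others. Clone 1 stood apart in proliferation markers, whose 6 genes summed to 368, 723 and 609 CPM. Summed levels ran from 3.42 to 7.09 CPM for 6 epithelial genes, from 7.33 to 13.1 CPM for 5 endothelial genes and from 74.7 to 85.7 CPM for 6 neural genes. Tie1 of the endothelial list had no count. Only Krt18 of the epithelial list, Kdr of the endothelial list, and Tubb3 and Map2 of the neural list were at 1 CPM or more in every clone. Each of these sums was mostly 1 gene, namely Krt18, Kdr and Tubb3.

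Of the 53 genes, 32 (60.4%) were at 1 CPM or more in every clone, and 52.2% of all genes in the table were. All 4 co-receptors, 8 of 10 Frizzled receptors and 6 of 7 intracellular genes reached this level, and so did 8 of 19 Wnt ligands, 4 of 9 antagonists and 2 of 4 R-spondins. No count was found in any clone for 7 genes, namely Wnt3a, Wnt7a, Wnt7b, Wnt8b, Wnt9b, Dkk4 and Sfrp5. Another 4 genes (Wnt1, Wnt3, Wnt8a and Rspo4) had at most 3 counts in every clone. Levels of different genes were compared per kb of annotated exon. Summed over each class, the Frizzled receptors were at 118 ± 3.36 CPM per kb, the secreted antagonists at 80.4 ± 11.2, the co-receptors at 35.4 ± 2.13, the Wnt ligands at 29.3 ± 4.27 and the R-spondins at 11.5 ± 6.49 (SD, n = 3). In every clone the antagonists together were above the ligands, by 3.36-fold, 2.01-fold and 3.05-fold in clones 1, 2 and 3. Dkk3 alone made up 70.7%, 68.0% and 63.0% of the antagonist sum in these clones. The antagonist sums were 91.2, 68.8 and 81.1 CPM per kb in clones 1, 2 and 3, of which Dkk3 held 64.5, 46.8 and 51.1. The ligand sums were 27.1, 34.2 and 26.6, so the other antagonists together were above the ligands in clone 3 alone.

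**Figure D1:**
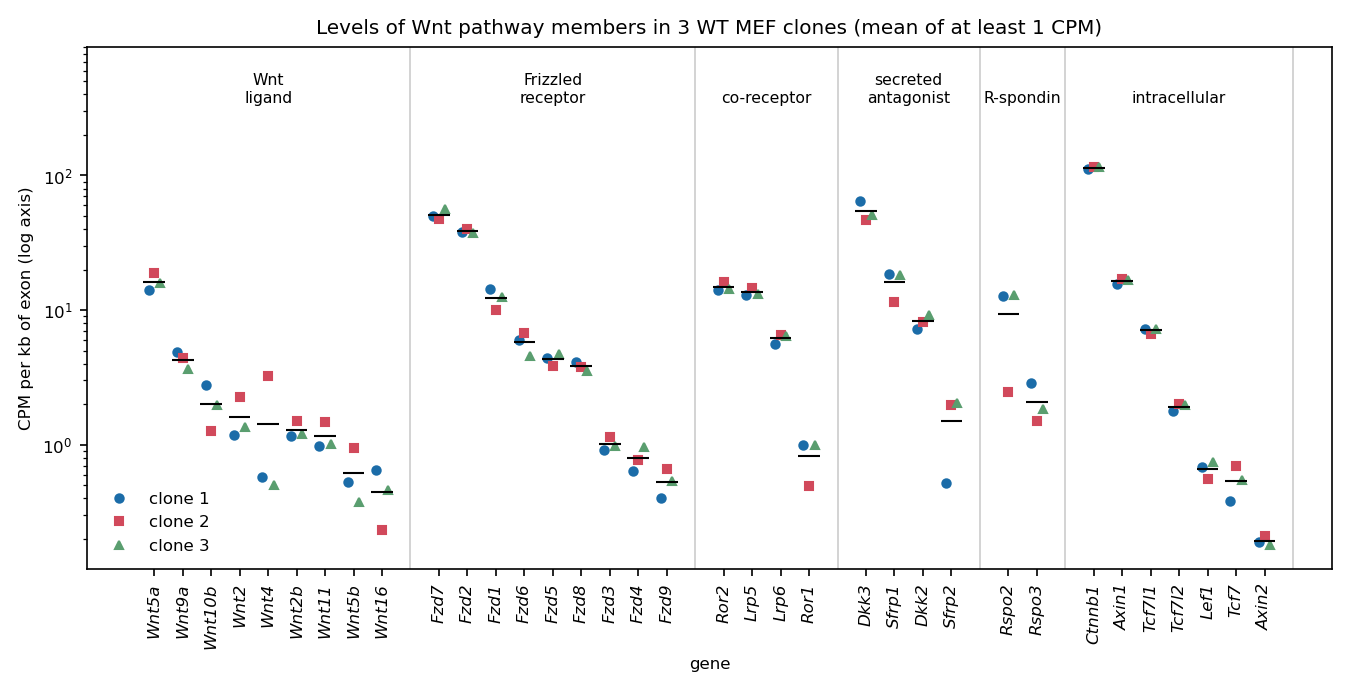
CPM per kb of annotated exon (log axis) of the 35 genes whose mean reached 1 CPM, by class, with 1 point per clone and a black line at the mean. Ctnnb1 is above all others at 114 CPM per kb, and the points of most genes lie close together, whereas clone 2 is above the other clones for Wnt4 and below them for Rspo2, and clone 1 is below the others for Sfrp2.

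Wnt5a was the leading ligand. This ligand of Ror receptors (chromosome 14, 28504750 to 28527448 on the plus strand of GRCm38) had 2746, 3309 and 3149 counts in clones 1, 2 and 3, or 127 ± 18.3 CPM (SD, n = 3). Per kb it was at 16.3 ± 2.33, 3.80-fold above Wnt9a, with no overlap between the clones. Wnt5a took 52.1%, 54.8% and 59.9% of the summed level per kb of all Wnt ligands, a mean of 55.6% ± 3.98 (SD, n = 3). When counts were not divided by length, the mean share was 73.9%.

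The next ligand per kb was Wnt9a, which is known from joint formation, with 402, 328 and 305 counts and 4.29 ± 0.621 CPM per kb (SD, n = 3). It was followed by Wnt10b, a ligand that holds back adipocyte differentiation, with 233, 97 and 168 counts. Wnt9a was above Wnt10b in every clone, by 2.15-fold in the means and with no overlap, and by 1.41-fold, then with overlap, when the length was that of 1 transcript per gene, chosen for its coding length. Below them came Wnt2 (66, 115 and 77 counts), Wnt4 (60, 305 and 53), Wnt2b (121, 141 and 128) and Wnt11 (101, 137 and 105). From Wnt10b to Wnt11, each overlapped with its neighbour in the order per kb. With the single transcript, Wnt10b was 1.91-fold above Wnt2 in the means in place of 1.25-fold, and the order of Wnt4 and Wnt2b turned (ratio 0.881 in place of 1.12). Wnt5b, the paralog of Wnt5a, had 35, 57 and 25 counts, and Wnt5a was 29.7 ± 11.8 times higher per kb (SD, n = 3). Wnt16 had 70, 23 and 51 counts. The order of Wnt5b and Wnt16 also turned with the single transcript (ratio 0.598 in place of 1.38). Wnt10a had 14, 6 and 8 counts and Wnt6 had 1, 4 and 2, both under a mean of 1 CPM.

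Among the receptors, Fzd7 (chromosome 1, 59482424 to 59486955, plus strand) had 5615, 4846 and 6409 counts, or 51.1 ± 4.41 CPM per kb (SD, n = 3). Fzd2 followed with 3473, 3297 and 3431 counts and 38.4 ± 1.43 CPM per kb. Fzd7 was above Fzd2 in every clone with no overlap, by 1.33-fold in the means. Both together with Fzd1 (1493, 945 and 1325 counts) held most of the class, at 43.2% ± 2.67 for Fzd7, 32.6% ± 2.16 for Fzd2 and 10.4% ± 1.66 for Fzd1 (SD, n = 3). Fzd6 (716, 737 and 554 counts), Fzd5 (761, 596 and 824) and Fzd8 (614, 513 and 529) lay between 3.82 and 5.77 CPM per kb, and neighbours among them overlapped. Fzd5 and Fzd6 share exon sequence with genes on the opposite strand, 17.8% and 3.15% of their exon length, and the counting is not stated to use strand. Fzd3 (290, 330 and 316 counts), Fzd4 (107, 116 and 164) and Fzd9 (23, 34 and 31) were between 0.532 and 1.01 CPM per kb, and neighbours among these 3 overlapped. Fzd3 did not overlap with Fzd8 above it, and Fzd10 had 5, 4 and 8 counts.

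The co-receptors covered both routes of the pathway. Ror2, a receptor tyrosine kinase that binds Wnt5a, had 1484, 1556 and 1527 counts, or 14.9 ± 1.22 CPM per kb (SD, n = 3). Lrp5 had 3152, 3196 and 3229 counts, or 13.6 ± 0.854 CPM per kb, and its range overlapped with that of Ror2. Their order depends on the length, since Ror2 was at 0.618 times Lrp5 when the length was that of the single transcript, and its share of the class was then 30.9% in place of 41.9% ± 1.03. Lrp6 (1892, 1999 and 2212 counts) was lower than Lrp5 in every clone, at 6.15 ± 0.507 CPM per kb, a ratio of Lrp5 to Lrp6 of 2.21 ± 0.148 (SD, n = 3). Ror1, the paralog of Ror2, had 143, 64 and 144 counts, and Ror2 was 14.1, 33.0 and 14.4 times higher per kb in clones 1, 2 and 3.

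Dkk3, a divergent member of the Dickkopf family, led the secreted antagonists (chromosome 7, 112116017 to 112159057, minus strand). It had 5381, 3543 and 4335 counts, or 54.1 ± 9.23 CPM per kb (SD, n = 3), and 67.2% ± 3.89 of the class. Sfrp1, which binds Wnt ligands, followed with 2024, 1138 and 2026 counts and 16.2 ± 4.01 CPM per kb. Dkk2, a ligand of Lrp6, had 669, 684 and 867 counts, or 30.5 ± 3.70 CPM (SD, n = 3). In every clone the order per kb was Dkk3, Sfrp1, Dkk2 and then Sfrp2, with no overlap between neighbours. Dkk1, the best known antagonist of Lrp6, had only 4, 9 and 2 counts. Wif1 had 7, 2 and 11 counts and Sfrp4 15, 11 and 14.

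Of the R-spondins, Rspo2 (1604, 285 and 1683 counts) and Rspo3 (222, 105 and 144) were expressed, while Rspo1 had 2, 3 and 4 counts. Rspo2 was above Rspo3 per kb in every clone, by 4.37-fold, 1.64-fold and 7.07-fold in clones 1, 2 and 3, although the ranges of the levels overlapped. The ratio of the means was 4.51, and 6.89 with the single transcript. Its share of the class was 81.2%, 61.1% and 87.0% in clones 1, 2 and 3.

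**Figure D2:**
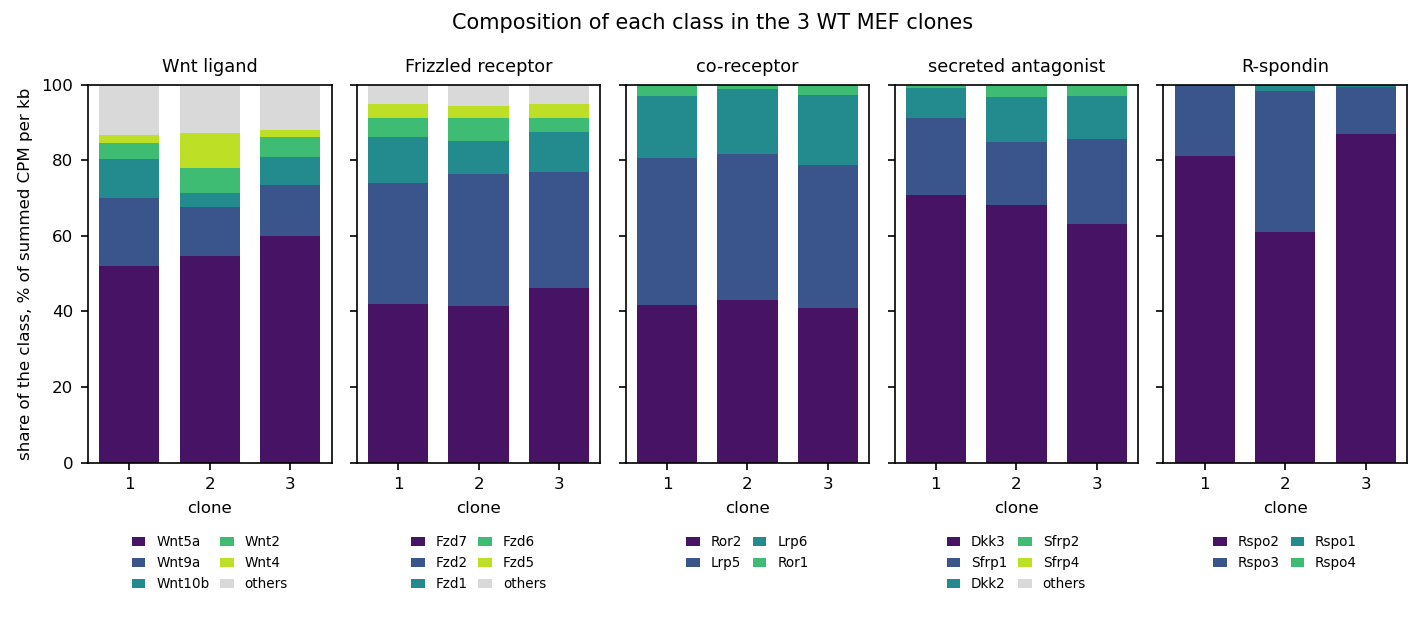
Share of each gene in the summed CPM per kb of its class (% on the vertical axis), with 1 bar per clone and up to 5 leading genes of each class in colour. Wnt5a, Fzd7, Dkk3 and Rspo2 are the lowest block of their class in every clone, and Wnt4 takes 9.42% of the Wnt ligands in clone 2 against 2.12% in clone 1 and 1.88% in clone 3.

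Inside the cell, Ctnnb1 (chromosome 9, 120929216 to 120960507, plus strand) had 14351, 13453 and 15150 counts, or 114 ± 2.31 CPM per kb (SD, n = 3). It was at or above 97.1% of the expressed genes per kb. Ulk4, a gene on the opposite strand, overlaps 14.6% of its exon length and had 39, 33 and 28 counts. Axin1, a scaffold of the complex that degrades β-catenin, had 1474, 1469 and 1609 counts, and Axin2, which has the same function and is itself switched on by β-catenin, had 26, 26 and 25. Per kb, Axin1 was 81.5, 81.3 and 92.6 times higher than Axin2. Tcf7l1, mostly a repressor, had 711, 591 and 718 counts and was above Tcf7l2 (388, 397 and 434 counts) in every clone, by 3.71 ± 0.384 per kb (SD, n = 3). Lef1 (149, 111 and 165 counts) and Tcf7 (25, 41 and 36 counts) overlapped per kb, at 0.662 ± 0.0933 and 0.540 ± 0.155. With the single transcript, Lef1 was above Tcf7 in all 3 clones, by 2.91-fold in the means in place of 1.23-fold. The exons of Lef1 overlap those of a gene on the opposite strand over 13.8% of their length.

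Tcf and Lef proteins bind DNA with the core letters CTTTG followed by AA, AT, TA or TT. These 7 letters were searched on both strands in windows from 250 bases before to 50 bases after annotated starts (RefSeq, GRCm38.p6). These starts can differ from the gene starts of GENCODE, as they do for Fzd7 and Dkk1. GENCODE places Dkk1 from 30545863 to 30549665 on the minus strand, so both of its stretches below lie inside that gene. For Wnt5b the start used lies far inside the gene as GENCODE annotates it. Windows were held for 36 of the 53 genes. Of their 45 windows, 7 held the letters (15.6%), and of all 32851 windows 16.9% did, so these genes were close to the background. The stretches that hold the letters before the start of 2 ligands, an antagonist and the leading receptor are shown 5′ to 3′ on the strand of the gene, with the core in capitals (read on the opposite strand for Wnt11 and Fzd7), because they place the core beside genes whose levels are given above. The windows of Lef1, Tcf7l2 and Wnt3 also held the letters and are not shown. A match is not a measured site.
Wnt11, chr7:98835050-98835078, plus strand, core from 51 bases before the start: gacgtgggcggATCAAAGcgacggtccgc
Wnt5b, chr6:119449440-119449468, minus strand, core from 71 bases before the start: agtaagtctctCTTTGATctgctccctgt
Dkk1, chr19:30549596-30549624, minus strand, core from 117 bases before the start: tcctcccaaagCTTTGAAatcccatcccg
Dkk1, chr19:30549577-30549605, minus strand, core from 98 bases before the start: tcccatcccggCTTTGTTgtcttccctga
Fzd7, chr1:59482006-59482034, plus strand, core from 130 bases before the start: tccacagagaaAACAAAGcgcgctattgg
These genes ran from 51.1 CPM per kb for Fzd7 to 0.0878 for Dkk1, with Wnt11 at 1.15 and Wnt5b at 0.619. The Axin2 window did not hold these letters.

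Between clones, most of these genes differed by little. A chi-square test of the 3 counts of a gene against the scaled library sizes, adjusted by Benjamini-Hochberg over 12608 genes with a mean of at least 10 counts, was made for 36 of the 53 genes, and the other 17 were under this minimum. It called 28 of the 36 (77.8%), and 62.2% of all genes tested. The test covers counting error only, and at these depths small differences pass it. The highest clone was at least 2-fold above the lowest, in CPM + 1, for 3 of the 36 (8.33%), namely Rspo2, Wnt4 and Sfrp2, and for 4.8% of all genes tested. The median fold was 1.31 in these genes and 1.22 over all genes tested. Of the 28 calls, 19 were kept without clone 1, 14 without clone 2 and 23 without clone 3. Of all genes then tested, 32.1%, 45.1% and 53.0% were called without clones 1, 2 and 3, so that over all genes the fewest calls were made without clone 1. Those called whichever clone was left out were Wnt5a, Wnt10b, Fzd1, Fzd6, Fzd7 and Dkk3. Tcf7, which was not called with all clones, passed when clone 3 was left out (adjusted p = 0.0355) and not when clone 1 or 2 was.

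**Figure D3:**
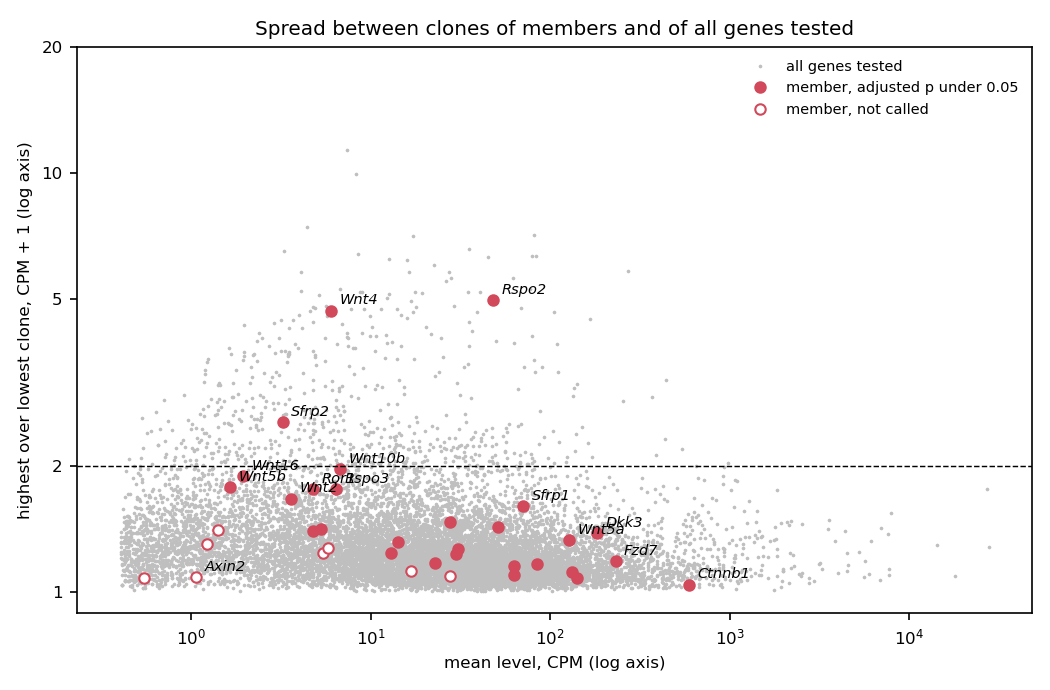
Ratio of the highest to the lowest clone in CPM + 1 against the mean CPM (both log axes) for all genes tested (grey) and the 36 members tested (red, filled where called). Wnt4, Rspo2 and Sfrp2 lie above the dashed line at 2-fold, and Ctnnb1, the member with the highest level, lies near 1.

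The R-spondin gene Rspo2 (chromosome 15, 43020794 to 43170826, minus strand) spread most. Its levels were 64.6, 12.6 and 66.6 CPM in clones 1, 2 and 3, so that clone 2 was at 0.193 times the mean of the others, which were close to each other. The highest clone was 4.96-fold above the lowest in CPM + 1 (chi-square, adjusted p = 1.02e-191). Without clone 2 the fold was 1.03 (adjusted p = 0.489), and the mean was 65.6 CPM in place of 47.9. Of the 605 genes called at 2-fold over the whole table, 24.8% were lowest in clone 2. In clone 2 the macrophage list was at 5.15 times, the muscle list at 0.362 times and the cartilage list at 0.697 times the mean of the others. All 5 genes of the muscle list had a count in some clone, but Des alone was at 1 CPM or more in every clone, while Myod1 had at most 4 and Myog at most 10 counts. Of the 5 cartilage genes 4 were at 1 CPM or more in every clone, and none was at 0. Most of their sum was Col2a1 (18263, 10979 and 18297 counts), while Sox9 (230, 288 and 271 counts) was highest in clone 2 in CPM, and the median deviation of the list in clone 2 was 0.07 in log2(CPM + 1). Their part in the Rspo2 difference was not tested, and in bulk RNA fewer cells of a type and less RNA per cell cannot be told apart. Rspo3 was also lowest in clone 2, at 0.636 times the mean of the others, and highest in clone 1. It was called (adjusted p = 3.68e-08), but not without clone 1 (1.19-fold, adjusted p = 0.233).

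Wnt4 (chromosome 4, 137277489 to 137299726, plus strand), a ligand known from kidney and female gonad development, had the opposite pattern. Its levels were 2.42, 13.5 and 2.10 CPM, and clone 2 was at 5.99 times the mean of the others. The fold in CPM + 1 was 4.69 (chi-square, adjusted p = 7.87e-74), and without clone 2 it was 1.10 (adjusted p = 0.577), with a mean of 2.26 CPM in place of 6.01. Of the 605 genes called at 2-fold over the whole table, 72.7% were highest in clone 2, and 42 stayed at 2-fold without it. The macrophage list, which was at 5.15 times in the same clone, moved with Wnt4, and its part in the Wnt4 level was not tested. Wnt5b, at 2.11 times, and Wnt2, at 1.79 times the mean of the others, were also highest in clone 2, and both calls were lost without it (adjusted p = 0.276 and 0.535).

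Sfrp2 (chromosome 3, 83766321 to 83774316, plus strand), a secreted Wnt-binding protein, was low in clone 1. It had 1.13 CPM there and 4.21 and 4.40 CPM in clones 2 and 3, so that clone 1 was at 0.262 times the mean of the others. The fold was 2.54 (chi-square, adjusted p = 3.41e-11), and it was 1.04 without clone 1 (adjusted p = 0.858), with a mean of 4.30 CPM in place of 3.25. Of the 605 genes called at 2-fold over the whole table, 42.8% were lowest in clone 1, and 330 stayed at 2-fold without it. In clone 1 the proliferation list was at 0.552 times the mean of the others, and its 6 genes were each at 1 CPM or more in every clone. Against the mean of the others, clone 1 was also at 0.361 times for macrophage, 0.62 for endothelial and 0.64 for epithelial genes. For macrophage genes it was nevertheless above clone 3, at 398 against 330 CPM. For epithelial genes it was close to clone 2, at 3.42 against 3.59 CPM. The fibroblast, cartilage and muscle lists were at 1.22, 1.20 and 1.1 times, and the neural list at 0.999 times. Most of the fibroblast sum was Col1a1 and Col1a2, which were highest in clone 1, as were Col3a1, Pdgfrb, Dcn and Lum. The other genes of that list, Pdgfra, Thy1, Vim and S100a4, were highest in clone 2. The part of all these marker lists in the Sfrp2 difference was not tested. A gene on the opposite strand overlaps 16.1% of the exon length of Sfrp2.

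**Figure D4:**
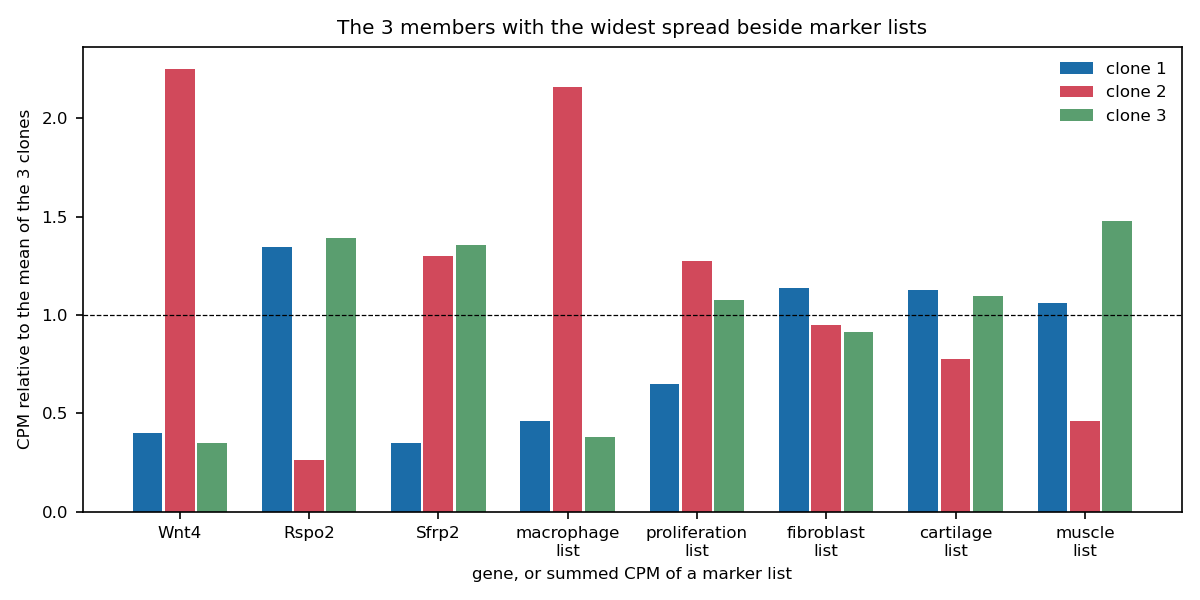
CPM of Wnt4, Rspo2 and Sfrp2 and summed CPM of marker lists in each clone, relative to the mean of the 3 clones (dashed line at 1). Clone 2 is high for Wnt4 and the macrophage list and low for Rspo2 and the muscle list, and clone 1 is low for Sfrp2 and the proliferation list.

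The other 25 called genes differed by less than 2-fold in CPM + 1, which understates the folds of low genes such as Wnt5b, Wnt10b and Wnt16. Clone 2 was lowest for Ror1, at 0.496 times the mean of the others, for Wnt16 at 0.422, for Wnt10b at 0.537, for Sfrp1 at 0.624 and for Fzd1 at 0.745. Of these, Ror1, Wnt16 and Sfrp1 were no longer called without clone 2 (adjusted p = 0.959, 0.129 and 0.725). The levels of Wnt10b were 9.38, 4.30 and 6.65 CPM, and the call was kept whichever clone was left out. Dkk3 was highest in clone 1, with 217, 157 and 172 CPM, and Wnt5a in clone 2, with 111, 147 and 125 CPM. For Ctnnb1 the levels of 578, 597 and 600 CPM differed by 1.04-fold, and the call (adjusted p = 0.00497) was lost without clone 1 (adjusted p = 0.78). Of the 28 called genes, 12 (42.9%) had their highest level in clone 2, 9 in clone 1 and 7 in clone 3. Over all called genes, 37.9% were highest in clone 2. The 8 genes tested and not called were Wnt2b, Fzd9, Sfrp4, Tcf7l1, Tcf7l2, Lef1, Tcf7 and Axin2. Of the 7 intracellular genes 2 (28.6%) were called, against 62.2% of all genes tested. Lef1, Tcf7 and Axin2 had few counts, at which only larger differences pass the test. Tcf7 and Lef1 were not called at 1.4-fold and 1.27-fold.

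**Figure D5:**
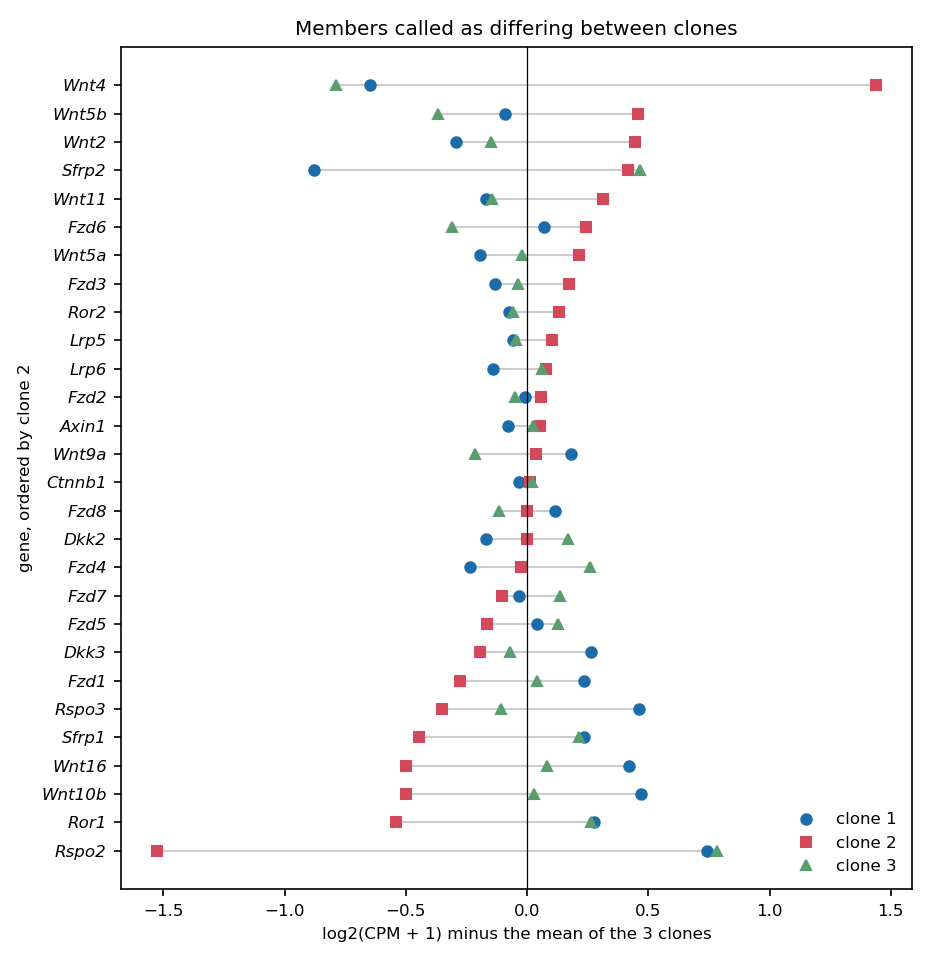
Difference of log2(CPM + 1) in each clone from the mean of the 3 clones for the 28 called genes, ordered by clone 2. Clone 2 is at the low end for Rspo2, Ror1, Wnt10b and Wnt16 and at the high end for Wnt4, Wnt5b and Wnt2.

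A list of 58 further genes of the pathway was set beside them. All were in the table, 48 were at 1 CPM or more in every clone, and 52 were tested. The test called 40 of the 52 (76.9%), and 62.2% of all genes tested. None of the list reached 2-fold in CPM + 1, which 4.8% of all genes tested did. This measure understates the folds of low genes such as Nkd1, at 2.74, 1.15 and 2.14 CPM. The median fold of the 52 was 1.27, and 1.22 over all genes tested. Without clone 1 the test called 26 genes of the list, and 32.1% of all genes then tested. Without clone 2 it called 23 genes of the list, and 45.1% of all genes then tested. For Wnt secretion, Wls, which carries Wnt proteins to the surface, was at 56.8 ± 7.06 CPM per kb and Porcn, which attaches their lipid, at 1.53 ± 0.418 (SD, n = 3). Both were highest in clone 1 and lowest in clone 2, with 13857, 9792 and 12797 counts for Wls and 146, 76 and 114 for Porcn. The 5 genes of the list with the highest level per kb were Gpc4, a glypican, at 273 ± 88.7, the adhesion receptor Cd44 at 177 ± 38.3, the pseudokinase Ptk7 at 133 ± 10.4, the secreted protein Cthrc1 at 105 ± 24.9 and Wls. Gpc4 had 24490, 11999 and 16460 counts, and clone 1 was 1.85-fold above clone 2 in CPM + 1.

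Of the 12 membrane genes of the list, 6 (50%) were called, and 62.2% of all genes tested were. All 6 (Lgr4, Lgr6, Ptk7, Ryk, Vangl1 and Znrf3) were highest in clone 2, and so were 37.9% of all called genes. Lgr4, a receptor of R-spondins, had 1025, 1189 and 1253 counts, or 47.9 ± 5.93 CPM (SD, n = 3). Its relatives Lgr6 (95, 154 and 108 counts) and Lgr5 (12, 19 and 8) were lower. The ubiquitin ligase Znrf3, which removes Frizzled receptors and is held back by R-spondins, had 260, 322 and 351 counts, and Rnf43, with the same function, had 19, 20 and 22. Of the 18 cytoplasmic genes 17 (94.4%) were called, against the same 62.2% of all genes tested. Of these 17, 12 were lowest in clone 2, among them Apc (2006, 1402 and 2044 counts), Dvl3 (1190, 833 and 1114) and Gsk3b (1683, 1326 and 1748). Gsk3a, with 2069, 1959 and 2226 counts, was not called. Of all called genes in the table, 33.9% were lowest in clone 2. Notum, a secreted enzyme that takes the lipid off Wnt proteins, had 7, 12 and 8 counts. Among genes known as targets of β-catenin, Sp5 had no count, and the inhibitor Nkd1 had 68, 26 and 54. The 4 tested genes filed only as targets (Ccnd1, Cd44, Myc and Twist1) were all called and highest in clone 2. Over all called genes, 37.9% were highest there. Targets filed in other classes went both ways. Znrf3 and Apcdd1 were called and highest in clone 2, whereas Nkd1 was called and lowest there. Lgr5 and Rnf43 were tested and not called, and Notum was not tested. In clone 2 the macrophage list was at 5.15 times the mean of the others. The part of that list in the levels of the membrane and target genes was not tested. Ccnd1 (4930, 5893 and 5740 counts) and Myc (2008, 2209 and 1917), which many other signals also control, were at 48.6 ± 6.69 and 31.3 ± 4.26 CPM per kb (SD, n = 3).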

How the data were processed

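RNA-seq of 3 clones of WT MEFs was used, 1 library each. The authors deposited raw counts per gene symbol. Alignment of the 86-nt single-end reads used TopHat (version 2.0.0) with up to 2 mismatches and 5 multi-hits, built on Bowtie (version 0.12.7) together with Samtools (version 0.1.16), and HTSeq made the counts. The methods name mm10 and the submitters' processing notes mm9. The annotation and strand setting are not given in the sources used here, so reads of genes that overlap on opposite strands cannot be told apart.

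CPM were computed with TMM factors of edgeR 4.0.16 (0.984 to 1.02) in R 4.3.3. Genes with a mean of at least 10 counts were tested between clones with a chi-square test (2 degrees of freedom, Benjamini-Hochberg adjusted p-value under 0.05), and folds were taken in CPM + 1. The test compares libraries, not conditions. Exon lengths and positions come from GENCODE M21 (GRCm38), which matched 99.7% of the genes and all 53 members. Levels per kb use the union of annotated exons. The procedure was tested on simulated data with planted 2-fold changes and counting error only. That simulation does not cover other variation between the clones. Members with a mean of at least 1 CPM were named with their counts. Of the further pathway genes, those past the test and 2-fold, the 5 highest per kb, Wls and Porcn were named by rule, and the others were chosen after their values were seen. The members, the pathway list and the marker lists were chosen with earlier results of these data known. Alternatives were DESeq2 1.42.0 size factors, total counts, other filters, thresholds, pseudocounts and lengths, thinned counts and leaving out each clone.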

Additional observations from a re-analysis of the deposited data

How the results depend on the processing

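The number of genes counted as expressed stayed between 29 and 35 under every alternative tried, other CPM minimums included, and the number called as differing between 25 and 28 under other scaling, filters and thinning. Leaving out 1 clone gave 14 to 24 differing genes, with 14 without clone 2, and 1 to 3 genes at 2-fold or more, with Sfrp2 alone without clone 2. Of the pathway list, 23 to 35 genes were then called in place of 40. A pseudocount of 0.1 CPM gave 6 genes at 2-fold or more, adding Wnt10b, Wnt16 and Wnt5b. Over all genes the count at 2-fold rose from 605 to 1111 with that pseudocount and fell to 42 without clone 2 and 331 without clone 1. All genes called were 4041, 5699 and 6705 without clones 1, 2 and 3 in place of 7836. Counts not divided by length gave shares of 73.9% for Wnt5a, 22.2% for Ror2, 63.2% for Dkk3 and 83.65% for Ctnnb1, and a single transcript length per gene gave 30.9% for Ror2. Leaving out 1 clone gave shares of 53.4% to 57.4% for Wnt5a and 71.1% to 84.1% for Rspo2. Of the 35 named genes, Axin1 alone lost its call with DESeq2 size factors (adjusted p = 0.0554) and Fzd8 alone with total counts (adjusted p = 0.125). No paired analysis was possible because all samples are of 1 group. With 1 library per clone, a clone cannot be told apart from its culture or library. Without the minimum of counts, 46 of the 53 genes were tested and 27 called.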

Other observations

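Of the Wnt genes, 4 pairs lie next to each other in GRCm38, and in each pair at most 1 gene was expressed at 1 CPM or more. Wnt9a had 402, 328 and 305 counts in clones 1, 2 and 3, whereas Wnt3a, 16.2 kb away on chromosome 11 and on the opposite strand, had no count. Wnt10b had 233, 97 and 168 counts, and Wnt1, 11.7 kb away on chromosome 15 and also on the opposite strand, had 1, 0 and 0. Wnt10a, with 14, 6 and 8 counts, lies 6.19 kb from Wnt6, with 1, 4 and 2, on the same strand of chromosome 1. Wnt9b and Wnt3, 24.3 kb apart on chromosome 11, had no count and 1, 2 and 1 counts. These values are a description of 3 libraries, and no test was made of the pairs.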
